A study of Homo sapiens with 6 samples.

Results

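The 37 genes described here encode the enzymes that make cholesterol and fatty acids, the regulators of the sterol regulatory element binding proteins (SREBPs), and a few sterol carriers and targets of the liver X receptors (LXRs). They were taken by gene symbol from the 22604 genes of the count table. The rule uses no measured value, but the list was drawn up with earlier results of these data known. They were measured by RNA-seq in SKNMC cells, an established Ewing sarcoma line that carries the EWS-FLI1 fusion, in 3 groups of 2 libraries. The groups were cells with V5-tagged NFIB lacking its intrinsically disordered region (NFIB ΔIDR), cells with V5-tagged full-length NFIB (NFIB WT) and cells with the empty expression vector. NFIB is a transcription factor of the nuclear factor I family, and the comparison of both constructs asks which genes respond differently when the disordered region is missing. All 3 groups are the same line grown in medium with serum, keep their own NFIB gene and received lentivirus. Per the study's methods the RNA-seq was done in biological duplicate, and the labels do not say whether cells were pools or clones or whether cultures were infected separately, so the p-values measure the spread between these libraries. In bulk RNA, fewer cells expressing a gene and less of its RNA per cell cannot be told apart.

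Cells make cholesterol from acetyl-CoA through mevalonate, farnesyl diphosphate, squalene and lanosterol. The SREBPs are made as membrane proteins of the endoplasmic reticulum, where the escort protein SCAP holds them. When sterols are scarce, SCAP carries them to the Golgi, proteases release their transcription factor part, and that part switches on the genes of sterol and fatty acid synthesis. When sterols are plentiful, the INSIG proteins keep SCAP in place. SREBF2 encodes the form that mainly drives sterol genes and SREBF1 the forms that mainly drive fatty acid genes. The LXRs respond to oxidised sterols and switch on genes that move cholesterol out of cells. Tumour cells need these lipids for their membranes, and serum supplies part of the sterol.

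The libraries held 6664231 to 8465572 counts, so that 1 CPM, the library-size unit used below (TMM-scaled), stood for 6.67 to 8.37 counts. Counting error covers only part of the spread between libraries. NFIB, counted over the endogenous gene and the constructs together, had 2227 and 2332 CPM in NFIB ΔIDR cells, 969 and 1051 CPM in NFIB WT cells and 176 and 145 CPM in empty vector cells. NFIB RNA was thus higher in NFIB ΔIDR cells than in NFIB WT cells (log2 fold change 1.17, SE 0.10, adjusted p = 0.000191), and the amount of construct RNA and the missing region cannot be told apart in this design. Of the 9 Ewing sarcoma markers checked, 8 were in the table and summed to 2291 to 2694 CPM per library. CCND1 alone gave 1163 to 1606 CPM of that sum and NR0B1 20.4 to 26.9 CPM. In edgeR, STEAP1 passed as higher with NFIB ΔIDR against NFIB WT (log2 fold change 0.34, adjusted p = 0.0258). CCND1 (-0.42, adjusted p = 0.00524) and LIPI (-0.51, adjusted p = 0.0172) passed as lower there. LIPI also passed for NFIB WT against the empty vector (0.62, adjusted p = 0.0376). The other Ewing sarcoma markers in the table passed in no comparison. Liver cell markers, 6 genes, summed to 1.05 to 2.07 CPM and adipocyte markers, 6 genes, to 0.738 to 2.18 CPM, and none of these 12 had enough counts to be tested. Replicate 1 of NFIB WT stood apart in its small structural RNAs, with a sum of 3186 CPM over 11 genes against 1753 to 2110 CPM in the other 5 libraries. Its part in the results was not tested beyond leaving that library out.

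Between the constructs, the synthesis genes were lower with NFIB ΔIDR. Of the 35 members with enough counts to be tested, 18 fell and 0 rose in NFIB ΔIDR cells relative to NFIB WT cells, at an adjusted p under 0.05 in edgeR's quasi-likelihood test with Benjamini-Hochberg adjustment over 13501 genes. Over all tested genes, 5.52% fell and 5.19% rose in that comparison. The 18 were spread over cholesterol synthesis (8 of 18 members), SREBP control (3 of 5) and fatty acid synthesis (7 of 9), with none among sterol transport and LXR targets (3 tested of 5). The median log2 fold change of the tested members was -0.47, against 0.00087 over all tested genes, and the 18 were 2.42% of the 745 genes that fell. At an unadjusted p under 0.05, 24 members were lower and 0 higher, and DESeq2 called 16 lower and 0 higher. Both NFIB ΔIDR libraries lay below both NFIB WT libraries for 28 of the 35 and above them for 0, against 27.6% and 27.8% of all tested genes. The study's methods set a 1.5-fold limit with DESeq2. By a like rule on the edgeR fit, a fold of at least 1.5 with an unadjusted p under 0.05, 11 members were lower and 0 higher. Of all genes, 4.3% and 5.69% were.

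Synthesis genes were also lower in NFIB ΔIDR cells than in empty vector cells. Of the 35 tested members, 11 fell and 0 rose relative to the empty vector, against 0.356% and 0.296% of all tested genes, and the 11 made up 22.9% of the 48 genes that fell. The median log2 fold change was -0.43, DESeq2 called 13 lower and 0 higher, and 24 members were lower and 0 higher at an unadjusted p under 0.05. Both NFIB ΔIDR libraries lay below both empty vector libraries for 27 of 35 members and above them for 1 (PMVK), against 27.1% and 26.2% of all genes. By the fold rule 9 members were lower and 0 higher, against 1.68% and 3.09% of all genes.

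With NFIB WT against the empty vector, 1 member rose (DHCR7) and 0 fell, against 0.452% and 0.163% of all genes, with a median of 0.07. At an unadjusted p under 0.05, 3 members were higher and 0 lower there, and DESeq2 called 1 higher and 0 lower. Both NFIB WT libraries lay above both empty vector libraries for 13 members and below them for 5, against 21.7% and 21.2% of all genes, and by the fold rule 0 members were lower and 0 higher, against 1.75% and 2.13%. The 3 comparisons share libraries, so their counts are given side by side and not as separate evidence.

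These counts depended on single libraries. Without NFIB ΔIDR replicate 1, 5 members fell between the constructs (DHCR7, LSS, INSIG1, SCD and FADS2), and without NFIB ΔIDR replicate 2, 4 did (the same genes except LSS), while 20 and 21 were lower at an unadjusted p under 0.05. Over all genes, the number that fell was then 69 and 67. Without NFIB WT replicate 1, which stood apart in structural RNAs, 23 members fell, and without NFIB WT replicate 2, 22 did. Against the empty vector, 24 members fell in NFIB ΔIDR cells without either NFIB WT library. Without empty vector replicate 1, empty vector replicate 2, NFIB ΔIDR replicate 1 or NFIB ΔIDR replicate 2, 0 passed in edgeR, with 18, 19, 18 and 23 lower at an unadjusted p under 0.05, and 2 genes of the whole table then fell in each of these 4 fits. At least 31 of the 35 log2 fold changes were below 0 in each of these fits.

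**Figure D1:**
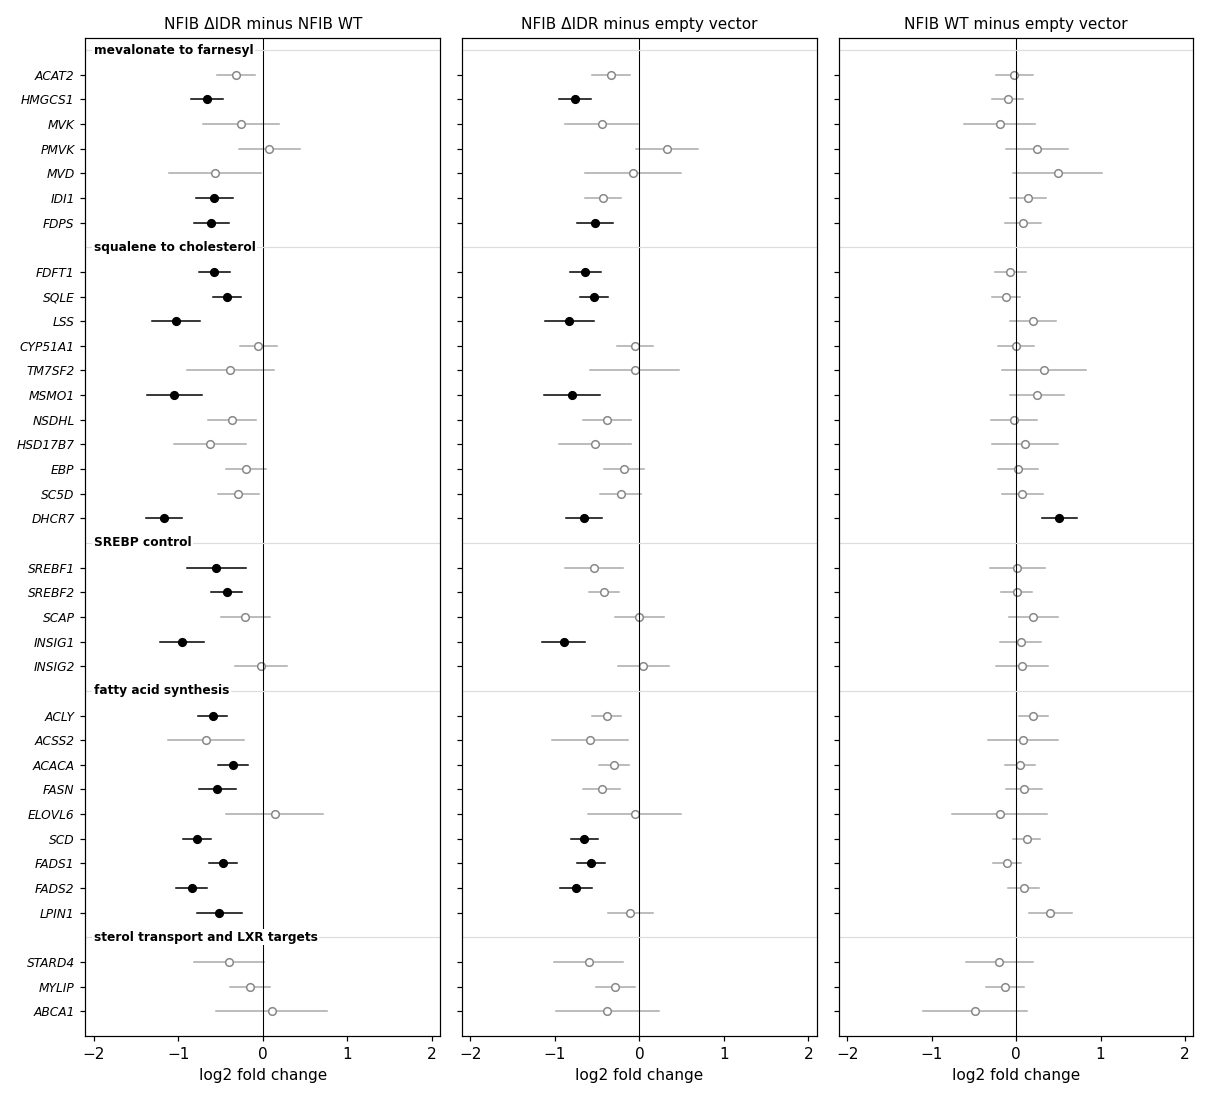
Log2 fold change (horizontal axis) of each of the 35 tested members for NFIB ΔIDR minus NFIB WT, NFIB ΔIDR minus the empty vector and NFIB WT minus the empty vector, with lines for the 95% confidence interval and filled points for an adjusted p under 0.05. In the left panel 18 points are filled, all below 0, in the middle panel 11, all below 0, and in the right panel only DHCR7, above 0.

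**Figure D2:**
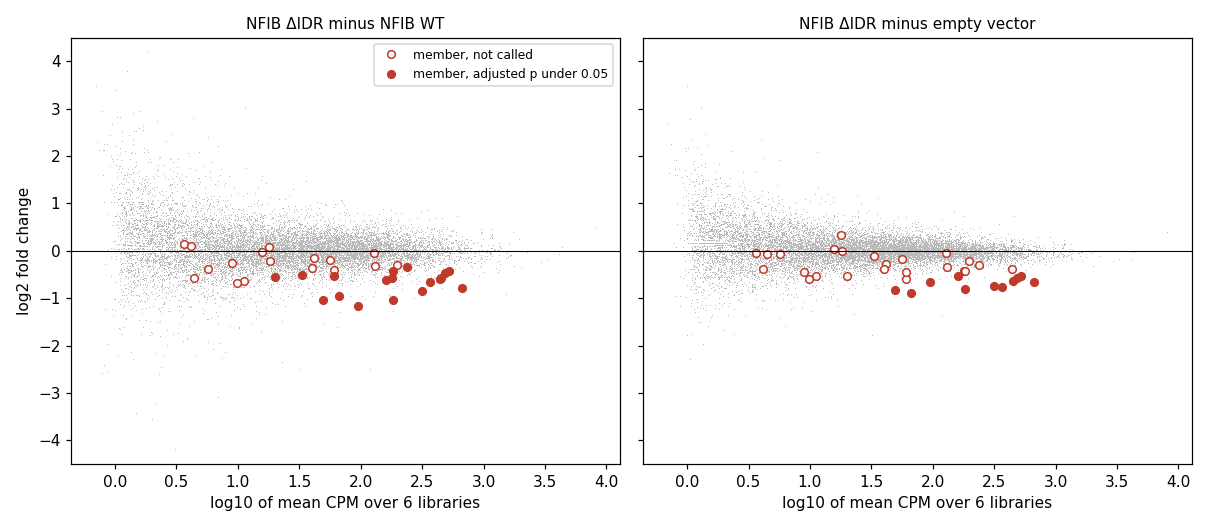
Log2 fold change (vertical axis) against log10 of the mean CPM over 6 libraries (horizontal axis), for NFIB ΔIDR minus NFIB WT on the left and NFIB ΔIDR minus the empty vector on the right, with grey dots for tested genes other than NFIB and circles for the 35 tested members, filled where the adjusted p was under 0.05. In each panel 32 of the 35 circles lie below 0 while the grey dots centre on 0.

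Calls were also counted by how many reads a member had. Of the 15 tested members with a mean of at least 100 CPM over the 6 libraries, 12 fell between the constructs, against 7.87% of the 2682 genes at that level. Of the 20 members under 100 CPM, 6 fell, against 4.94% of 10819 genes. Against the empty vector, 8 of the 15 and 3 of the 20 fell in NFIB ΔIDR cells, against 0.559% and 0.305% of genes at those levels. The threshold of 100 CPM was set after the values were seen.

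Summed over the 37 members, the genes took 0.405% and 0.407% of all counts in NFIB ΔIDR cells, 0.615% and 0.576% in NFIB WT cells and 0.584% and 0.569% in empty vector cells. The 18 sterol synthesis genes summed to 1989 and 2029 CPM with NFIB ΔIDR, 3047 and 2791 CPM with NFIB WT and 2913 and 2866 CPM with the empty vector. The mean sum was 2009 ± 28.1 CPM in NFIB ΔIDR cells and 2919 ± 181 CPM in NFIB WT cells (SD, n = 2 each), a ratio of 0.688. In empty vector cells it was 2890.0 ± 33.2 CPM (SD, n = 2), so that NFIB ΔIDR stood at 0.695 and NFIB WT at 1.01 of it. The 9 fatty acid synthesis genes summed to 1688 and 1700.0 CPM with NFIB ΔIDR, 2636 and 2585 CPM with NFIB WT and 2491 and 2444 CPM with the empty vector. The 5 SREBP control genes summed to 237 and 243 CPM with NFIB ΔIDR, 343 and 338 CPM with NFIB WT and 339 and 327 CPM with the empty vector. In all 3 sums both NFIB ΔIDR libraries were below the other 4 and did not overlap them. The 5 sterol transport genes and LXR targets showed the same, at 91.05 and 86.8 CPM with NFIB ΔIDR. They summed to 122.5 and 94.66 CPM with NFIB WT and 133.1 and 113.8 CPM with the empty vector. The sums were not tested, and with 2 libraries against 2 an exact permutation test could not reach 0.05.

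**Figure D3:**
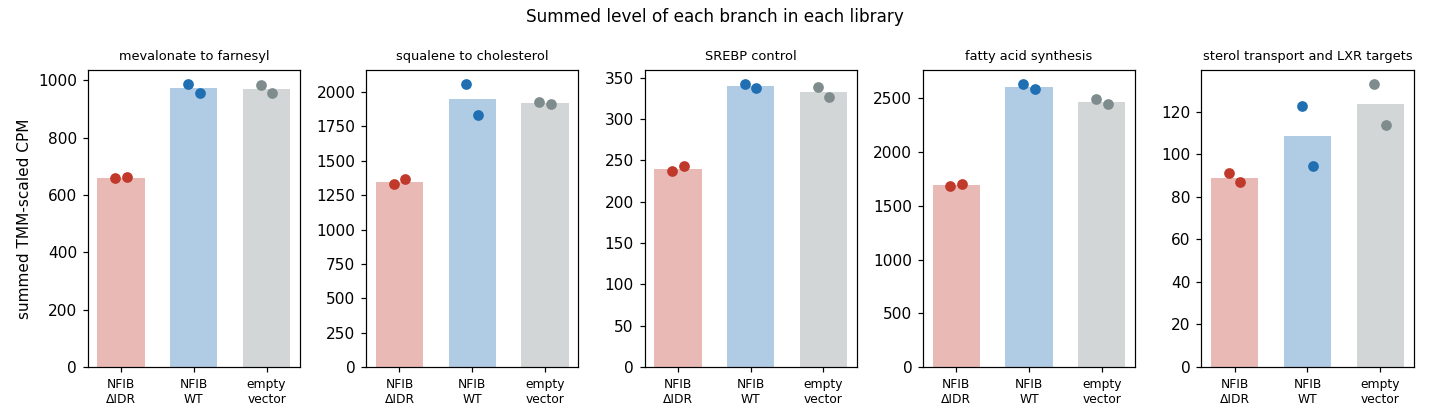
Summed CPM (vertical axis, from 0) of the members of each branch in each of the 6 libraries, NFIB ΔIDR, NFIB WT and empty vector from left to right, with bars for the mean of 2 libraries and points for the libraries. From mevalonate to farnesyl the mean is 661 CPM with NFIB ΔIDR, 972 CPM with NFIB WT and 969.9 CPM with the empty vector, and from squalene to cholesterol 1348, 1948 and 1920.0 CPM in that order.

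SREBPs bind sterol regulatory elements in promoters, next to sites for the CCAAT binding factor NF-Y, and NFI proteins bind TTGGC sites. RefSeq promoters (GRCh38.p14, 250 bases before to 50 bases after the gene's start) were found for 32 of the 37 members and searched on both strands. The sterol regulatory element TCACNCCAC occurred in 1 of the 32, SREBF2, against 1.13% of 35116 promoters in the table. CCAAT occurred in 20 of 32 (62.5%), against 34.6% of all promoters and 37.0% of those of tested genes. It was in 9 of the 15 promoters of members that fell between the constructs and in 10 of the 16 of tested members that did not pass. The NFI palindrome, TTGGC and GCCAA with 5 bases between, was in 0 of 32, against 0.0285% of all promoters, and TTGGCA in 3 of 32 (DHCR7, SCD and FADS1), against 12.5% of all promoters and 8.995% of those of tested genes. The 3 were among the 15 promoters of members that fell between the constructs, with 0 among the 16 of tested members that did not pass. At 9.375% of the 32, TTGGCA was near its share of 8.995% in tested genes, so a split of 3 promoters says little. The shorter TGGCA was not counted over the members. These are letter matches and not measured sites.

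Promoters of 5 members are shown, that of SREBF2 because it holds the sterol regulatory element and those of the 4 members with a promoter sequence that fell most between the constructs, chosen after their values were seen. They run 5′ to 3′ on the strand of the gene, in lower case with motif matches in capitals. ATTGG is CCAAT on the opposite strand. Only the forms searched are in capitals. The shorter TTGGC can also be read in SREBF2 and MSMO1, and TGGCA in SREBF2 and LSS, across or outside the capitals. The capitals are TCACCCCAC from base -133 and ATTGG in SREBF2, CCAAT or ATTGG alone in LSS, INSIG1 and MSMO1, and in DHCR7 a CCAAT followed by ATTGGCA, where an opposite CCAAT from -48 overlaps TTGGCA from -47. They lie at chr22:41832855-41833154 (SREBF2, plus strand), chr11:71448344-71448643 (DHCR7, minus strand), chr4:165327419-165327718 (MSMO1, plus strand), chr21:46228725-46229024 (LSS, minus strand) and chr7:155297628-155297927 (INSIG1, plus strand) of GRCh38.p14.
SREBF2: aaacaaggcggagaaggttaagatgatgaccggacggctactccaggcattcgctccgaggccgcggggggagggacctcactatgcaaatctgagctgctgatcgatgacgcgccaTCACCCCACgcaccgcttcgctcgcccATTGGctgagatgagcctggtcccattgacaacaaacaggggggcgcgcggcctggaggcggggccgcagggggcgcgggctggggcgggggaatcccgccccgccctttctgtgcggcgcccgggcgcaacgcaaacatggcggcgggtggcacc
DHCR7: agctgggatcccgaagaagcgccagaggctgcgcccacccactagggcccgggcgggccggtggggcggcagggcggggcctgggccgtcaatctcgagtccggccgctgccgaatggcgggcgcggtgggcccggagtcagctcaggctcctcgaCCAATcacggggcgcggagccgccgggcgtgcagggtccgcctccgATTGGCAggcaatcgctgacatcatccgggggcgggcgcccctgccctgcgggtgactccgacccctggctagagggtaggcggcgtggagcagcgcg
MSMO1: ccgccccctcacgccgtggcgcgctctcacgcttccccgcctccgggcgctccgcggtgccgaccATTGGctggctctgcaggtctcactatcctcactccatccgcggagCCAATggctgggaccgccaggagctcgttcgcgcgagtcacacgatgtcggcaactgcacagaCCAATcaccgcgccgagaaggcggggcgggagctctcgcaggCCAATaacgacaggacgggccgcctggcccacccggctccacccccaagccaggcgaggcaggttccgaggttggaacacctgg
LSS: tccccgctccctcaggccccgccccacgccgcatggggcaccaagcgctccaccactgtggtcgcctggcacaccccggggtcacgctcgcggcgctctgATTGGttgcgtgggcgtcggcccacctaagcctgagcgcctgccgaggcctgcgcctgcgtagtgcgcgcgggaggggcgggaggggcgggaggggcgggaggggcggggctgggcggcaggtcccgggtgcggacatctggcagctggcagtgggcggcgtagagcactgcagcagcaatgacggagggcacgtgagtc
INSIG1: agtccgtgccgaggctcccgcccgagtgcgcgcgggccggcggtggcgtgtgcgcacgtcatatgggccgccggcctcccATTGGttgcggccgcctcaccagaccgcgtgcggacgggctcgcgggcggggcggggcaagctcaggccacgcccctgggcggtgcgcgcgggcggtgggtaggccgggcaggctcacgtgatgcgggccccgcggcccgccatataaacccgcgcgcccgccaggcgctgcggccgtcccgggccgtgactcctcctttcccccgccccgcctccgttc

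The early steps, from acetyl-CoA to farnesyl diphosphate, had 3 of 7 tested members lower with NFIB ΔIDR than with NFIB WT (HMGCS1, IDI1 and FDPS) and 2 of 7 lower than with the empty vector (HMGCS1 and FDPS). HMGCS1, the cytosolic enzyme that joins acetyl-CoA to acetoacetyl-CoA on the way to mevalonate (hg19 chr5:43287572-43313614), had 263 and 252 CPM in NFIB ΔIDR cells, 426 and 389 CPM in NFIB WT cells and 452 and 422 CPM in empty vector cells. Its NFIB ΔIDR libraries were the lowest of the 6, and it fell relative to NFIB WT (log2 fold change of -0.66, SE 0.09, adjusted p = 0.00160) and relative to the empty vector (log2 fold change of -0.76, SE 0.09, adjusted p = 0.00489). IDI1, which turns isopentenyl diphosphate into its reactive isomer, had 141 and 139 CPM with NFIB ΔIDR, 225 and 190.4 CPM with NFIB WT and 187 and 189 CPM with the empty vector. It fell relative to NFIB WT (log2 fold change of -0.57, SE 0.10, adjusted p = 0.00576), and its difference from the empty vector had an interval below 0 but did not pass after adjustment (log2 fold change of -0.43, SE 0.10, adjusted p = 0.0793). FDPS, which makes farnesyl diphosphate, had 119 and 124 CPM in NFIB ΔIDR cells, 171 and 199 CPM in NFIB WT cells and 175 and 174 CPM in empty vector cells. Both NFIB ΔIDR libraries lay below the other 4, and FDPS fell against NFIB WT (log2 fold change of -0.61, SE 0.10, adjusted p = 0.00421) and against the empty vector (log2 fold change of -0.52, SE 0.10, adjusted p = 0.0391). The FDPS call against the empty vector was lost, among other settings, under a stricter filter on low counts and by the fold rule. Of the GENCODE exon bases of FDPS, 18.6% overlap RUSC1-AS1 on the opposite strand, and of those of IDI1, 15% overlap IDI2-AS1. Overlaps here and below describe GENCODE exons and not the RefSeq models that were counted. FDPS, for example, has 3718 exon bases in GENCODE and a counted length of 1647 bases. Neither the labels nor the methods say whether reads were counted by strand, or how reads that also match the processed copies of FDPS were treated.

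The other 4 early enzymes did not pass in any comparison in the edgeR fit of all 6 libraries. In other edgeR fits, ACAT2 was among others lower between the constructs without the filter on low counts. It was also lower with NFIB ΔIDR against the empty vector when those groups were fitted alone. ACAT2, the thiolase that makes acetoacetyl-CoA, averaged 111.5 CPM in NFIB ΔIDR cells, 138.5 CPM in NFIB WT cells and 140.5 CPM in empty vector cells, with a log2 fold change between the constructs of -0.31 (95% confidence interval -0.54 to -0.09), and 22.2% of its exon bases overlap SOD2 or TCP1 on the opposite strand. MVK and PMVK, which add the phosphates to mevalonate, had log2 fold changes between the constructs of -0.25 (-0.70 to 0.19) and 0.08 (-0.28 to 0.44). MVD, which removes the carboxyl group, had -0.57 (-1.11 to -0.02) at 3.52 to 6.30 CPM per library. These wide intervals at low counts leave changes of the size seen in HMGCS1 possible for MVK and MVD.

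From squalene to cholesterol, 5 of 11 members fell with NFIB ΔIDR relative to NFIB WT and the same 5 relative to the empty vector: FDFT1, SQLE, LSS, MSMO1 and DHCR7. FDFT1, squalene synthase, commits farnesyl diphosphate to sterols and had 320.0 and 345 CPM in NFIB ΔIDR cells, 513 and 477 CPM in NFIB WT cells and 509 and 529 CPM in empty vector cells. It fell against NFIB WT (log2 fold change of -0.57, SE 0.08, adjusted p = 0.00297) and against the empty vector (log2 fold change of -0.64, SE 0.08, adjusted p = 0.0105). SQLE, squalene epoxidase, a rate-controlling step, had 407 and 421 CPM with NFIB ΔIDR, 568 and 544 CPM with NFIB WT and 606 and 599.5 CPM with the empty vector. The groups did not overlap, and it fell against NFIB WT (log2 fold change of -0.43, SE 0.08, adjusted p = 0.00700) and the empty vector (log2 fold change of -0.54, SE 0.08, adjusted p = 0.0132). Per kilobase of gene length, SQLE was the highest of the 18 sterol genes, at 138.5 CPM per kb with NFIB ΔIDR, 186 with NFIB WT and 202 with the empty vector. LSS, which folds the epoxide into lanosterol, had 33.4 and 28.3 CPM in NFIB ΔIDR cells, 69.7 and 56.8 CPM in NFIB WT cells and 54.6 and 55.3 CPM in empty vector cells. With NFIB ΔIDR it fell to 0.490-fold of NFIB WT (log2 fold change of -1.03, SE 0.13, adjusted p = 0.00144), and it also fell against the empty vector (log2 fold change of -0.83, SE 0.13, adjusted p = 0.0222).

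MSMO1, which removes methyl groups from the sterol ring (hg19 chr4:166248819-166264316), had 115 and 113 CPM with NFIB ΔIDR, 278 and 193 CPM with NFIB WT and 211 and 185 CPM with the empty vector. Both NFIB ΔIDR libraries were the lowest, while NFIB WT replicate 1 was well above its pair. MSMO1 fell against NFIB WT (log2 fold change of -1.05, SE 0.15, adjusted p = 0.00285) and against the empty vector (log2 fold change of -0.80, SE 0.15, adjusted p = 0.0424), and across the alternatives the log2 fold change between the constructs ranged from -1.29 to -0.76. Its call against the empty vector was lost, among other settings, with scaling by library totals only and under a stricter filter on low counts.

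DHCR7, which catalyses the last step to cholesterol by reducing 7-dehydrocholesterol (hg19 chr11:71139239-71163914), had the lowest log2 fold change of the members between the constructs. It had 59.0 and 59.9 CPM in NFIB ΔIDR cells, 141 and 126 CPM in NFIB WT cells and 95.0 and 92.6 CPM in empty vector cells. The 3 groups were separate, with NFIB ΔIDR lowest, the empty vector between and NFIB WT highest. With NFIB ΔIDR it stood at 0.445-fold of NFIB WT (log2 fold change of -1.17, SE 0.10, adjusted p = 0.000223) and at 0.634-fold of the empty vector (log2 fold change of -0.66, SE 0.10, adjusted p = 0.0184). With NFIB WT it rose to 1.42-fold of the empty vector (log2 fold change of 0.51, SE 0.09, adjusted p = 0.0419), the only call of a member in that comparison. That last call was lost on leaving out any 1 of the empty vector or NFIB ΔIDR libraries and when NFIB WT and the empty vector were fitted alone, and over the alternatives its log2 fold change ranged from 0.43 to 0.60.

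The other 6 of the 11 late enzymes did not pass in the fit of all 6 libraries. In other edgeR fits, among them the following, some did. HSD17B7 and SC5D were lower between the constructs without the filter on low counts. NSDHL, HSD17B7 and SC5D were lower with NFIB ΔIDR against the empty vector when those groups were fitted alone. CYP51A1, the lanosterol demethylase, had 124 and 125 CPM with NFIB ΔIDR, 138 and 121 CPM with NFIB WT and 135 and 124 CPM with the empty vector. Its groups overlapped, and its log2 fold change between the constructs was -0.05 with an interval of -0.27 to 0.16, which does not reach the value of any of the 8 sterol genes that fell. EBP, the sterol isomerase, had -0.20 (-0.44 to 0.04), and SC5D, which adds the C5 double bond, -0.29 (-0.53 to -0.05). NSDHL and HSD17B7, which work with MSMO1 in removing the C4 methyl groups, had -0.36 (-0.64 to -0.08) and -0.63 (-1.05 to -0.20), with both NFIB ΔIDR libraries below both NFIB WT libraries. TM7SF2, a C14 sterol reductase, had -0.38 (-0.90 to 0.13) at 4.13 to 6.83 CPM.

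**Figure D4:**
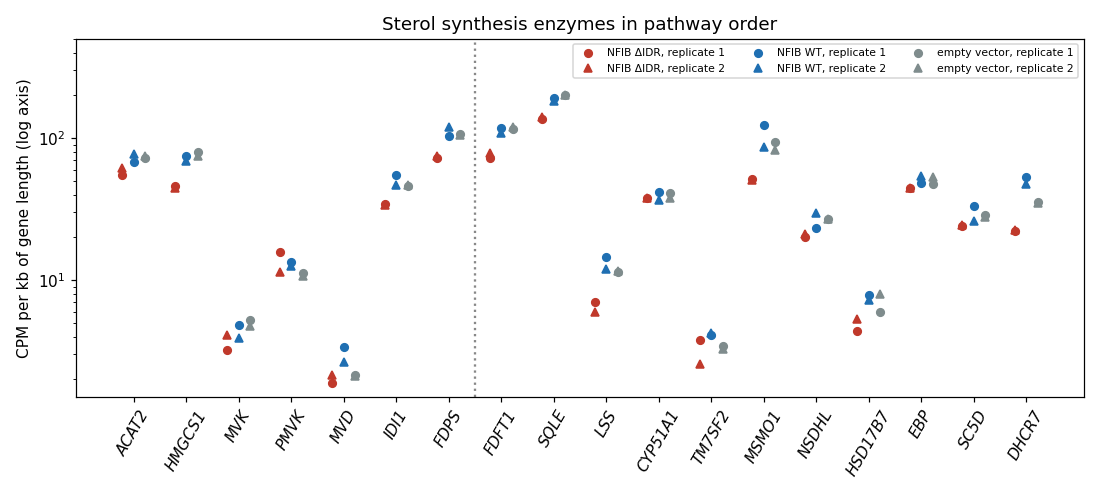
CPM per kilobase of gene length (vertical log axis) of the 18 sterol synthesis genes in pathway order (horizontal axis), with a point for each library of NFIB ΔIDR, NFIB WT and empty vector cells and a dotted line between farnesyl diphosphate and squalene. NFIB ΔIDR points lie below the others at HMGCS1, IDI1, FDPS, FDFT1, SQLE, LSS, MSMO1 and DHCR7, and among the others at CYP51A1 and PMVK.

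Among the 5 genes of SREBP control, SREBF1, SREBF2 and INSIG1 fell between the constructs and SCAP and INSIG2 did not pass. INSIG1, which holds SCAP in the endoplasmic reticulum and is itself an SREBP target (hg19 chr7:155089486-155101945), had 41.7 and 42.1 CPM in NFIB ΔIDR cells, 86.2 and 76.0 CPM in NFIB WT cells and 84.6 and 71.6 CPM in empty vector cells. It fell to 0.517-fold of NFIB WT (log2 fold change of -0.95, SE 0.12, adjusted p = 0.00133) and to 0.537-fold of the empty vector (log2 fold change of -0.90, SE 0.12, adjusted p = 0.0105), with no overlap of the NFIB ΔIDR libraries with the others. INSIG2, its relative, which is not itself an SREBP target, had 15.2 and 16.5 CPM with NFIB ΔIDR, 16.1 and 16.1 CPM with NFIB WT and 16.1 and 14.6 CPM with the empty vector. The libraries overlapped, and the log2 fold change between the constructs was -0.02 with an interval of -0.33 to 0.28, which lies above that of INSIG1.

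SREBF2 (hg19 chr22:42229109-42303310) had 147 and 152 CPM in NFIB ΔIDR cells, 201 and 200.4 CPM in NFIB WT cells and 199 and 201 CPM in empty vector cells. It fell against NFIB WT (log2 fold change of -0.43, SE 0.08, adjusted p = 0.0101), and against the empty vector its value was of similar size and did not pass (log2 fold change of -0.42, SE 0.08, adjusted p = 0.0511). SREBF1 had 15.4 and 15.5 CPM with NFIB ΔIDR, 19.5 and 25.5 CPM with NFIB WT and 21.3 and 23.4 CPM with the empty vector. It passed narrowly between the constructs (log2 fold change of -0.55, SE 0.16, adjusted p = 0.0478), and the call was lost in 11 of 16 alternatives, DESeq2 among them, and of its exon bases 6.75% overlap RAI1. Counts per gene do not tell its transcript forms apart. SCAP had 17.9 and 17.1 CPM in NFIB ΔIDR cells, 20.3 and 20.1 CPM in NFIB WT cells and 18.7 and 16.4 CPM in empty vector cells, with a log2 fold change between the constructs of -0.20 (-0.50 to 0.09) and against the empty vector of 0.00077 (-0.29 to 0.30).

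In fatty acid synthesis 7 of 9 members fell with NFIB ΔIDR relative to NFIB WT, and 3 of 9 relative to the empty vector (SCD, FADS1 and FADS2). ACLY, which supplies cytosolic acetyl-CoA from citrate, had 355 and 344 CPM in NFIB ΔIDR cells, 532 and 522 CPM in NFIB WT cells and 469.9 and 445 CPM in empty vector cells. It fell against NFIB WT (log2 fold change of -0.59, SE 0.08, adjusted p = 0.00171), with the empty vector libraries between the other groups and no call against them (log2 fold change of -0.39, SE 0.08, adjusted p = 0.0540). ACACA, which makes malonyl-CoA, had 201 and 203 CPM with NFIB ΔIDR, 256 and 258 CPM with NFIB WT and 256 and 243 CPM with the empty vector. Its fall against NFIB WT was the smallest of the 18 (log2 fold change of -0.35, SE 0.08, adjusted p = 0.0228) and was lost in 6 of 16 alternatives. FASN, which builds palmitate, had 49.8 and 45.3 CPM in NFIB ΔIDR cells, 68.4 and 69.8 CPM in NFIB WT cells and 64.2 and 65.4 CPM in empty vector cells. It fell against NFIB WT (log2 fold change of -0.54, SE 0.10, adjusted p = 0.00819) and did not pass against the empty vector (log2 fold change of -0.44, SE 0.10, adjusted p = 0.0761).

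SCD, which puts the first double bond into stearate and palmitate (hg19 chr10:102106990-102124583), had 458 and 479 CPM with NFIB ΔIDR, 813 and 792 CPM with NFIB WT and 730.4 and 739.6 CPM with the empty vector. No NFIB ΔIDR library overlapped the others, and SCD fell against NFIB WT (log2 fold change of -0.78, SE 0.07, adjusted p = 0.000433) and the empty vector (log2 fold change of -0.65, SE 0.07, adjusted p = 0.00529). The desaturases of polyunsaturated fatty acids, FADS1 and FADS2, lie together on chromosome 11 (hg19 chr11:61567099-61596790 and chr11:61560452-61634826). In these GENCODE positions FADS1 falls within the span of FADS2, on the opposite strand. Of their exon bases, 5.57% and 5.11% overlap other genes, including each other. FADS2, the first desaturase of that path, had 209 and 211 CPM in NFIB ΔIDR cells, 396 and 357 CPM in NFIB WT cells and 353 and 355 CPM in empty vector cells. It fell against NFIB WT (log2 fold change of -0.84, SE 0.08, adjusted p = 0.000517) and the empty vector (log2 fold change of -0.75, SE 0.08, adjusted p = 0.00489). FADS1, which acts after it, had 376 and 379 CPM with NFIB ΔIDR, 512 and 534 CPM with NFIB WT and 570.0 and 554 CPM with the empty vector, and fell against NFIB WT (log2 fold change of -0.47, SE 0.08, adjusted p = 0.00435) and the empty vector (log2 fold change of -0.58, SE 0.08, adjusted p = 0.0106).

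LPIN1, a phosphatidate phosphatase that leads fatty acids into glycerolipids, had another pattern. It had 29.0 and 27.6 CPM in NFIB ΔIDR cells, 43.7 and 37.4 CPM in NFIB WT cells and 31.1 and 29.9 CPM in empty vector cells. The NFIB WT libraries were the high ones, NFIB ΔIDR fell against them (log2 fold change of -0.51, SE 0.12, adjusted p = 0.0226) but its value against the empty vector was -0.11 (-0.37 to 0.16), and NFIB WT against the empty vector had 0.41 with adjusted p = 0.174. The call between the constructs was lost in 7 of 16 alternatives, DESeq2 among them. ACSS2, which makes acetyl-CoA from acetate, had -0.67 (-1.13 to -0.22) between the constructs and did not pass in the fit of all 6 libraries. In other edgeR fits it passed there as lower, among them without the filter on low counts and with a replicate block. ACSS2 was also lower with NFIB ΔIDR against the empty vector when those groups were fitted alone. ELOVL6, which lengthens palmitate, was at 3.15 to 3.99 CPM and had 0.14 (-0.43 to 0.72).

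**Figure D5:**
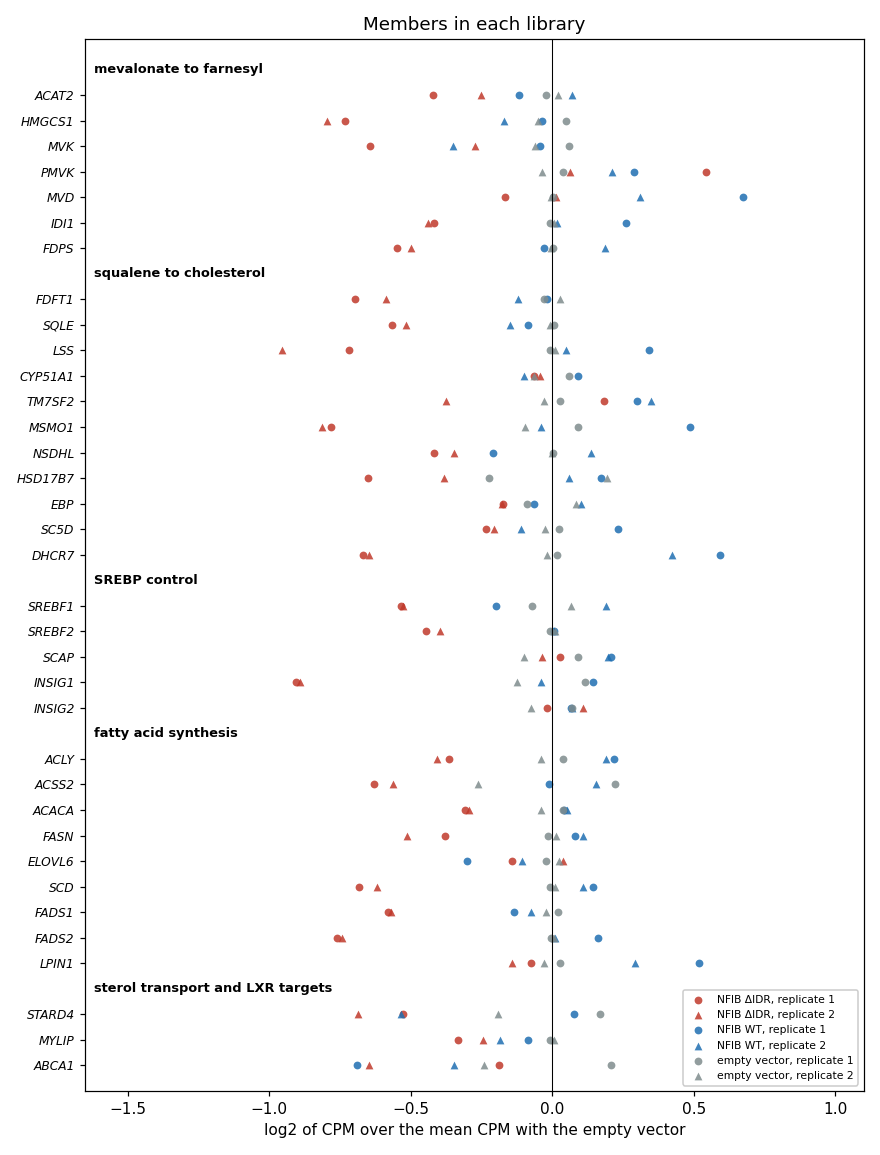
Log2 of the CPM over the mean CPM of the empty vector libraries (horizontal axis) for each of the 35 tested members (rows, by branch), with a point for each of the 6 libraries coloured by group and shaped by replicate. The NFIB ΔIDR points stand to the left of the others for INSIG1, SCD, FADS2 and DHCR7 and mix with the others for CYP51A1, PMVK and INSIG2.

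No transport gene or LXR target passed in any comparison in the edgeR fit of all 6 libraries or in DESeq2. In other edgeR fits, among them the following, some did. STARD4 and MYLIP were lower with NFIB ΔIDR against the empty vector when those groups were fitted alone and without either NFIB WT library, and STARD4 was lower against NFIB WT and against the empty vector without the filter on low counts. At an unadjusted p under 0.05 in the fit of all libraries, 2 of the 3 tested (STARD4 and MYLIP) were lower with NFIB ΔIDR against the empty vector and 0 in the other comparisons. STARD4, a cytosolic sterol carrier and SREBP target, had a log2 fold change of -0.40 (-0.81 to 0.01) between the constructs and -0.60 (-1.01 to -0.19) for NFIB ΔIDR against the empty vector. MYLIP, a ubiquitin ligase and LXR target, had -0.15 (-0.39 to 0.08) between the constructs. ABCA1, the LXR target that exports cholesterol, was at 3.15 to 5.87 CPM, with 0.11 (-0.55 to 0.76) between the constructs. ABCG1, another exporter, had 1 and 1 counts in NFIB ΔIDR cells, 2 and 5 in NFIB WT cells and 5 and 4 in empty vector cells, too few to test. NPC1L1, the intestinal sterol uptake protein, had 1 and 0 counts in NFIB ΔIDR cells and 0 in the other 4 libraries, where a count of 0 allows up to 3 counts.

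The same pathways hold genes that are not members, and 77 of them were looked up. Between the constructs, 9 of 73 tested related genes fell and 2 rose, where 5.52% of all tested genes fell and 5.19% rose. Against the empty vector 2 fell and 0 rose in NFIB ΔIDR cells, where 0.356% and 0.296% of all genes did. Other sterol steps and carriers held 5 of the 9 (of 12 tested), with a median log2 fold change of -0.26. Among them, ERG28, which holds the sterol C4 demethylation enzymes together, had 46.0 and 54.5 CPM in NFIB ΔIDR cells, 88.3 and 68.9 CPM in NFIB WT cells and 70.8 and 70.9 CPM in empty vector cells (log2 fold change of -0.64, SE 0.13, adjusted p = 0.0140 between the constructs). NPC1, which exports cholesterol from lysosomes, had 30.0 and 31.3 CPM with NFIB ΔIDR, 47.3 and 44.1 CPM with NFIB WT and 39.9 and 35.6 CPM with the empty vector (log2 fold change of -0.57, SE 0.11, adjusted p = 0.0112). TMEM97, which binds NPC1, had 107 and 106 CPM in NFIB ΔIDR cells, 152 and 135 CPM in NFIB WT cells and 151 and 139.7 CPM in empty vector cells (log2 fold change of -0.43, SE 0.10, adjusted p = 0.0206). All 3 were lower with NFIB ΔIDR than with NFIB WT in both libraries, and none of the 3 passed against the empty vector.

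The other branches from farnesyl diphosphate, to ubiquinone, dolichol and prenylated proteins, had 0 of 12 genes past the threshold in any comparison, with a median log2 fold change between the constructs of -0.06. With 5.52% of all genes lower and 5.19% higher between the constructs, and under 1% in either direction in the other comparisons, a count of 0 among 12 genes is close to the background and says little of these branches. By DESeq2 0 passed as well, and at an unadjusted p under 0.05 in edgeR 1 was lower between the constructs, 1 higher with NFIB ΔIDR and 2 higher with NFIB WT against the empty vector. Of 5 tested LXR genes and partners, NCOR1, a corepressor of nuclear receptors, had 343 and 365 CPM in NFIB ΔIDR cells, 237 and 299 CPM in NFIB WT cells and 318 and 322 CPM in empty vector cells and rose with NFIB ΔIDR relative to NFIB WT (log2 fold change of 0.40, SE 0.11, adjusted p = 0.0374). Against the empty vector it did not pass with NFIB ΔIDR (log2 fold change of 0.15, adjusted p = 0.573) or with NFIB WT (log2 fold change of -0.26, adjusted p = 0.337). Its NFIB WT libraries were the lowest, with replicate 1 below its pair.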

How the data were processed

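Total RNA of 6 SKNMC libraries was sequenced after CORALL library preparation, which keeps strand and adds molecular identifiers. The authors converted reads with CASAVA 2.19, aligned them to hg19 with STAR 2.4.0h and deposited raw counts per RefSeq gene from featureCounts. The use of strand, identifiers and multi-mapping reads is not stated. DESeq2 and a 1.5-fold limit are named in the study's methods.

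The 22604 genes were filtered by filterByExpr of edgeR 4.0.16 (R 4.3.3), at a count of 10 and a total of 15, which left 13501. After TMM scaling, glmQLFTest was run on 1 model of all 6 libraries with 3 group means, which leaves 3 residual degrees of freedom. Adjusted p are Benjamini-Hochberg values over all 13501 genes. The common biological coefficient of variation was 0.0776. CPM per kilobase uses the deposited gene length. Intervals are 95% confidence intervals from the fit. Library totals of 6664231 to 8465572 counts set the precision.

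The members, the lists of related and marker genes and the tests were chosen with earlier results of these data known. Values in every library are given for members past the threshold in any comparison and for SREBF1, SREBF2, SCAP, INSIG1 and INSIG2, and the others by range and fold change. Related genes were named where they passed, at most 4 per list by smallest p, and 2 such genes are counted but not reported by name here. Alternatives were DESeq2 1.42.0, other scalings and filters, fits of 2 groups, robust estimation, a replicate block, the fold rule on the edgeR fit and leaving out each library. Gene positions and exon overlaps came from GENCODE lifted to hg19, whose exons differ from the RefSeq models counted. Promoters came from RefSeq on GRCh38.p14. The steps were tested on simulated data. Python 3.11.15 with matplotlib 3.10.9 made the figures.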

Additional observations from a re-analysis of the deposited data

How the results depend on the processing

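Where members were called with NFIB ΔIDR, they were lower in all alternatives run, and 0 members were called higher against NFIB WT or the empty vector in any of them. The log2 fold changes of called members kept their sign throughout. DHCR7, INSIG1, SCD and FADS2 kept their calls between the constructs in all 16 alternatives. Low counts limit MVD, ELOVL6, TM7SF2 and ABCA1. Causes of the shifts below were not tested, beyond the fewer libraries that leaving one out implies.

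Members lower between the constructs numbered 18, and 11 with the fold rule. Leaving out a library gave 4 to 23. Members lower with NFIB ΔIDR against the empty vector numbered 11, with 24 when those groups were fitted alone, 17 without the filter, and 0 to 24 leaving out a library. Members higher with NFIB WT against the empty vector numbered 1, with 0 in the fit of 2 groups, 0 with the fold rule and 0 to 7 leaving out a library (0 to 1 for lower).

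Over all genes, 701 were higher and 745 lower between the constructs, with 295 and 431 by DESeq2, 322 and 358 in the fit of 2 groups and 1116 and 1164 without the filter. Leaving out a library gave 42 to 2176 higher and 67 to 2229 lower. NFIB ΔIDR against the empty vector gave 40 higher and 48 lower, with 910 and 973 in the fit of 2 groups, 276 and 274 without the filter, 417 and 227 with the fold rule, and 2 to 892 and 2 to 977 leaving out a library. NFIB WT against the empty vector gave 61 higher and 22 lower, with 10 and 3, 281 and 260, and 288 and 236 in those settings, and 8 to 1518 and 1 to 1533 leaving out a library.

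Related genes between the constructs numbered 2 higher and 9 lower, with 0 and 3 in the fit of 2 groups, 0 and 3 with the fold rule, 5 lower by DESeq2, and 0 to 5 and 0 to 25 leaving out a library. Against the empty vector NFIB ΔIDR had 0 higher and 2 lower, with 3 and 11 in the fit of 2 groups, 4 lower without the filter, 0 lower with the fold rule, and 0 to 3 and 0 to 11 leaving out a library. NFIB WT against the empty vector had 0 higher and 1 lower, with 1 higher without the filter, 0 lower in the fit of 2 groups, and 0 to 16 and 0 to 3 leaving out a library.

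Median log2 fold changes moved under the stricter filter (5 CPM in 2 libraries) to 0.029 for mevalonate to farnesyl (NFIB WT against the empty vector), -0.50 for fatty acid synthesis (NFIB ΔIDR against the empty vector) and -0.41 for both sterol branches (between the constructs), and with library totals only to -0.41 for all members (NFIB ΔIDR against the empty vector). Leaving out a library, the medians between the constructs ranged from -0.57 to -0.41 for mevalonate to farnesyl, -0.52 to -0.43 for squalene to cholesterol, -0.45 to -0.34 for SREBP control, -0.61 to -0.48 for fatty acid synthesis, -0.51 to -0.43 for both sterol branches and -0.49 to -0.43 for all members. For NFIB ΔIDR against the empty vector they ranged from -0.43 to -0.27, -0.57 to -0.38, -0.45 to -0.40, -0.52 to -0.35, -0.49 to -0.38 and -0.43 to -0.39 in the same order. For NFIB WT against the empty vector they ranged from -0.026 to 0.091, 0.048 to 0.16, 0.017 to 0.15, 0.082 to 0.11, 0.048 to 0.13 and 0.049 to 0.088.

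The labels do not say whether libraries with the same replicate number were handled together. Over all tested genes, the correlation of their deviations was 0.05 between NFIB ΔIDR and NFIB WT and 0.02 between NFIB ΔIDR and the empty vector. It was 0.15 between NFIB WT and the empty vector. These values cannot settle whether the libraries were paired, since a pairing could touch only some genes. With the replicate block, 22 members were lower between the constructs, 16 were lower with NFIB ΔIDR against the empty vector and 1 was higher with NFIB WT against the empty vector. STARD4, ACAT2 and HSD17B7 were among those lower between the constructs. Over all genes the block gave 120 higher and 121 lower with NFIB ΔIDR against the empty vector, and 126 higher and 62 lower with NFIB WT against it.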

Other observations

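Of 22 other fatty acid enzymes tested, 2 fell and 1 rose between the constructs, and of 13 glycerolipid synthesis genes 1 fell. Over all tested genes 5.52% fell and 5.19% rose, so these counts are near the background, and the genes are given for their values. ACSL3, which activates fatty acids at lipid droplets, had 109.7 and 112 CPM in NFIB ΔIDR cells, 154 and 142 CPM in NFIB WT cells and 159 and 164 CPM in empty vector cells. It fell with NFIB ΔIDR against NFIB WT (log2 fold change of -0.41, SE 0.09, adjusted p = 0.0173) and against the empty vector (log2 fold change of -0.54, SE 0.09, adjusted p = 0.0223). ELOVL7, an elongase of long saturated fatty acids, had 4.87 and 3.69 CPM with NFIB ΔIDR, 7.95 and 7.34 CPM with NFIB WT and 5.32 and 4.90 CPM with the empty vector and fell between the constructs (log2 fold change of -0.82, SE 0.22, adjusted p = 0.0397). ACSL4, which activates arachidonate, had 119 and 129 CPM in NFIB ΔIDR cells, 97.6 and 78.4 CPM in NFIB WT cells and 144 and 139.5 CPM in empty vector cells. It rose with NFIB ΔIDR relative to NFIB WT (log2 fold change of 0.49, SE 0.11, adjusted p = 0.0220), and with NFIB WT it fell relative to the empty vector (log2 fold change of -0.69, SE 0.11, adjusted p = 0.0253). Among the glycerolipid synthesis genes DGAT1, which makes triglyceride, had 18.7 and 19.6 CPM with NFIB ΔIDR, 32.1 and 25.0 CPM with NFIB WT and 27.3 and 25.0 CPM with the empty vector and fell between the constructs (log2 fold change of -0.57, SE 0.15, adjusted p = 0.0333). These 4 genes were not among the 37 and no explanation was tested.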
